A study of Arabidopsis thaliana with 4 samples.

Results

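Glucosinolates are sulfur-rich thioglucosides that Arabidopsis and its relatives make from amino acids, and the probe sets for 5 steps around them were examined here in the Atdi19-3 mutant. These are the probe sets for BCAT4 (AT3G19710), CYP83B1 (AT4G31500), SUR1 (AT2G20610) and UGT74B1 (AT1G24100), and the probe set shared by the nitrilase genes NIT2 (AT3G44300) and NIT1 (AT3G44310). They are 5 of the 22746 probe sets tested, and they cover 6 genes. They were chosen by the gene they name. The platform annotation names BCAT4 and UGT74B1. The other 3 probe sets carry a name only through the study's own list of changed genes, and all 987 probe sets that this list alone names as a single gene had a positive difference here. The direction, size and calls of CYP83B1, SUR1 and the nitrilase probe set are therefore no independent evidence.

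Whole seedlings of Atdi19-3, with 2 Affymetrix ATH1 arrays, were compared with wild-type seedlings, also with 2 arrays. Both genotypes were in the Col-0 background and were harvested untreated at 10 days of age, after growth on half-strength MS medium at 22 °C with 16 h of light and 8 h of dark. The mutant is 1 homozygous T-DNA insertion line, with the insertion towards the 3' side of the fifth exon of AtDi19-3, which encodes a zinc finger protein. Each value is a background-corrected and normalized log2 signal of 1 probe set on 1 array, and a difference of 1 is a doubling. The labels name the arrays of a genotype as biological replicates. Whole seedlings were extracted, so more RNA per cell and more cells of a type cannot be told apart.

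The core of glucosinolate synthesis begins with cytochromes of the CYP79 family, which turn an amino acid into an aldoxime. CYP83 enzymes oxidize the aldoxime, the product is joined to glutathione, the C-S lyase SUR1 releases a thiohydroximate, UGT74B1 adds glucose and sulfotransferases add sulfate. Methionine is first lengthened by a cycle that the aminotransferase BCAT4 enters, whereas tryptophan enters the core directly. Indole-3-acetaldoxime, the aldoxime made from tryptophan, is also a source of indole-3-acetonitrile, which nitrilases can hydrolyse to the auxin indole-3-acetic acid. In wounded tissue, thioglucosidases called myrosinases split stored glucosinolates, and accessory proteins steer the products towards nitriles or isothiocyanates.

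The arrays of the genotypes differed in more than these genes. All 18 probe sets for hybridization spike-ins were lower in Atdi19-3 (array medians of 5.92 and 6.20) than in the wild type (9.69 and 9.41). The 3' minus 5' difference was narrower in Atdi19-3 for 5 of 6 pairs of control probe sets. For ubiquitin it was 0.60 and 0.71 in Atdi19-3, against 4.41 and 4.09 in the wild type. A value over 4 was reached by 14.1% and 13.5% of probe sets on the Atdi19-3 arrays, against 7.10% and 8.34% on the wild-type arrays. This split follows the genotype, so a technical share in the differences described here cannot be told apart from the mutation. Among the markers of tissues, the green-tissue gene RCA, for rubisco activase, read 8.38 and 8.56 in Atdi19-3 and 4.33 and 5.65 in the wild type (3.48, adjusted p = 0.14). The photosynthetic genes CAB1, on a shared probe set, and GAPB had 3.72 and 3.58, and both were called (adjusted p = 0.0499 and 0.0103). GAPB read 7.86 and 7.93 in Atdi19-3 and 4.31 on both wild-type arrays, which may be that probe set's floor. Its small p therefore rests on a wild-type spread of 0.00. The root gene PYK10, itself a beta-glucosidase, read 3.42 and 3.56 in Atdi19-3, against 3.21 on both wild-type arrays (0.28, adjusted p = 0.19). AGP31, listed here with the root markers though not shown to be limited to root, read 6.81 and 6.68 in Atdi19-3. It read 5.56 and 5.34 in the wild type (1.30, adjusted p = 0.066). Of the markers listed, 3 of 5 for green tissue and 2 of 5 for root had a named probe set, and those for seeds, flowers and senescence were not analysed here. The part of tissue composition in the results was not tested. The probe set of AtDi19-3 itself is not named in the sources used here, so the mutation was not checked against the labels.

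The nitrilase probe set (252678_s_at) showed the largest difference of the 5. Its suffix marks probes that match more than 1 transcript, so the signal of NIT2 cannot be separated from that of NIT1. Both genes encode enzymes that act on indole-3-acetonitrile, and they lie next to each other, with the related nitrilase gene NIT3 next to NIT1, in the TAIR10.1 annotation. The probe set read 7.02 and 6.83 on the Atdi19-3 arrays and 3.29 and 2.97 on the wild-type arrays. Both mutant arrays lay above both wild-type arrays, with a gap of 3.54 between the nearest values. The difference was 3.80 on the log2 scale (standard error 0.17, 95% confidence interval 3.20 to 4.39), at least 13.9-fold, and limma called it (adjusted p = 0.033). "Called" here means an adjusted p under 0.05 over all 22746 probe sets. The fold is a lower bound because a wild-type array read under 3, near the lowest value on the arrays, 2.49. Only 0.167% of the tested probe sets had a larger increase.

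After quantile normalization of the deposited values, the nitrilase probe set read 6.60 and 6.43 in Atdi19-3 and 3.56 and 3.04 in the wild type. The groups still did not overlap, but the difference of 3.21 was no longer called (adjusted p = 0.065). With any 1 of the 4 arrays left out, the difference was between 3.64 and 3.96 and was not called (adjusted p of 0.0504 to 0.17).

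**Figure D1:**
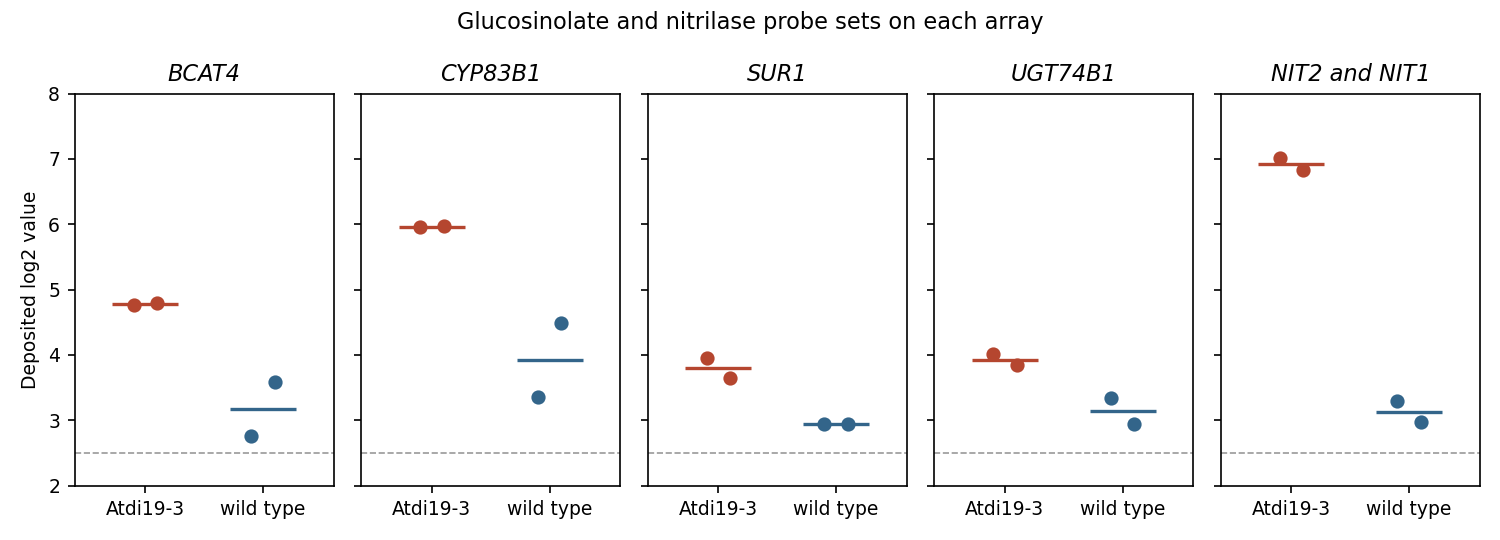
Deposited log2 value (vertical axis) of the BCAT4, CYP83B1, SUR1, UGT74B1 and shared NIT2 and NIT1 probe sets on the 2 Atdi19-3 arrays (red, left) and the 2 wild-type arrays (blue, right). Each point is 1 array, bars mark the genotype means and the dashed line is the lowest value of the arrays (2.49). In every panel both red points lie above both blue points, with the widest gap, 3.54, for the nitrilase probe set.

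CYP83B1 (253534_at), the cytochrome P450 that oxidizes indole-3-acetaldoxime and so commits it to indole glucosinolates, had the next largest difference. In Arabidopsis, loss of this enzyme is known to raise auxin. The probe set read 5.95 and 5.97 in Atdi19-3 and 3.35 and 4.49 in the wild type. The mutant arrays nearly coincided, whereas the wild-type arrays lay 1.14 apart. The difference was 2.04 (standard error 0.51, 95% confidence interval 0.20 to 3.87), or 4.11-fold, and was not called (adjusted p = 0.24). After quantile normalization it was 1.25 (adjusted p = 0.345). It was 1.47 without the first wild-type array and 2.61 without the second. In these fits the lone wild-type array is assumed to vary like the mutant arrays.

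SUR1 (263714_at), the C-S lyase of the core pathway, works on both the tryptophan and the methionine branch. Its loss in Arabidopsis is also known for high auxin. It read 3.96 and 3.64 in Atdi19-3 and 2.95 on both wild-type arrays. Where both wild-type arrays give the same value, it may be that probe set's floor. The difference of 0.85 (standard error 0.14, 95% confidence interval 0.33 to 1.37), at least 1.80-fold, was not called (adjusted p = 0.14). Its standard error and interval rest in part on a wild-type spread of 0.00. After quantile normalization the difference was 0.54 and not called (adjusted p = 0.135).

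UGT74B1 (264873_at), the glucosyltransferase of the same core, read 4.01 and 3.84 in Atdi19-3 and 3.34 and 2.95 in the wild type. The gap between the nearest arrays of the genotypes was 0.50. The difference of 0.78 (standard error 0.19, 95% confidence interval 0.08 to 1.48), at least 1.72-fold, was not called (adjusted p = 0.23). This is the probe set whose groups came to overlap after quantile normalization, at 3.70 and 3.61 in Atdi19-3 against 3.65 and 3.01 in the wild type. The difference was then 0.33 (adjusted p = 0.62).

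BCAT4 (257021_at), the methionine aminotransferase at the entry to chain elongation, belongs to the aliphatic and not to the indole branch. It read 4.77 and 4.79 in Atdi19-3 and 2.76 and 3.58 in the wild type. As for CYP83B1, the mutant arrays were close together and the second wild-type array was the higher of its pair. The difference of 1.61 (standard error 0.37, 95% confidence interval 0.27 to 2.95), at least 3.06-fold, was not called (adjusted p = 0.21). It was 1.20 without the first and 2.03 without the second wild-type array. After quantile normalization it was 1.07 and not called (adjusted p = 0.38).

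Between the 5 probe sets, the differences ran from 0.78 to 3.80 on the log2 scale with a median of 1.61. The median over all tested probe sets was 0.00, and over the 6894 probe sets with a mean above 3 it was 0.44. All 5 had both Atdi19-3 arrays above both wild-type arrays, as did 28.5% of the tested probe sets and 64.4% of those with a mean above 3. Of the 5, 1 was called higher, where the background was 3.16% higher and 3.76% in either direction. At a log2 fold change over 1 with an unadjusted p of 0.05 or less, 3 of the 5 passed (BCAT4, CYP83B1 and the nitrilase probe set). These are the thresholds used for the study's volcano plot, and 6.34% of the tested probe sets passed them in the upward direction. CYP83B1, SUR1 and the nitrilase probe set are named only through the study's list, so their part in these comparisons is no independent evidence. Of the 2 named by the platform annotation, BCAT4 passed the fold thresholds and UGT74B1 did not, and neither was called. When probe sets with a mean of 3 or less were left out of the fit, all 5 were called higher, with adjusted p from 0.0030 for the nitrilases to 0.043 for UGT74B1. In that fit 34.5% of the 6894 probe sets were called higher. SUR1 averaged 3.80 in Atdi19-3 and 2.95 in the wild type and so passed the filter only through the genotype in which it was high, and its call there is no support.

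The spread between arrays of a genotype differed from gene to gene. The mutant arrays lay 0.02 apart for both CYP83B1 and BCAT4, 0.17 for UGT74B1, 0.18 for the nitrilases and 0.32 for SUR1. The wild-type arrays lay 1.14 apart for CYP83B1, 0.83 for BCAT4, 0.40 for UGT74B1, 0.32 for the nitrilases and 0.00 for SUR1. For the probe sets with a mean above 3, the median distance was 0.16 between the mutant arrays and 0.24 between the wild-type arrays. The second wild-type array was higher than the first for CYP83B1 and BCAT4 and lower for UGT74B1 and the nitrilases.

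**Figure D2:**
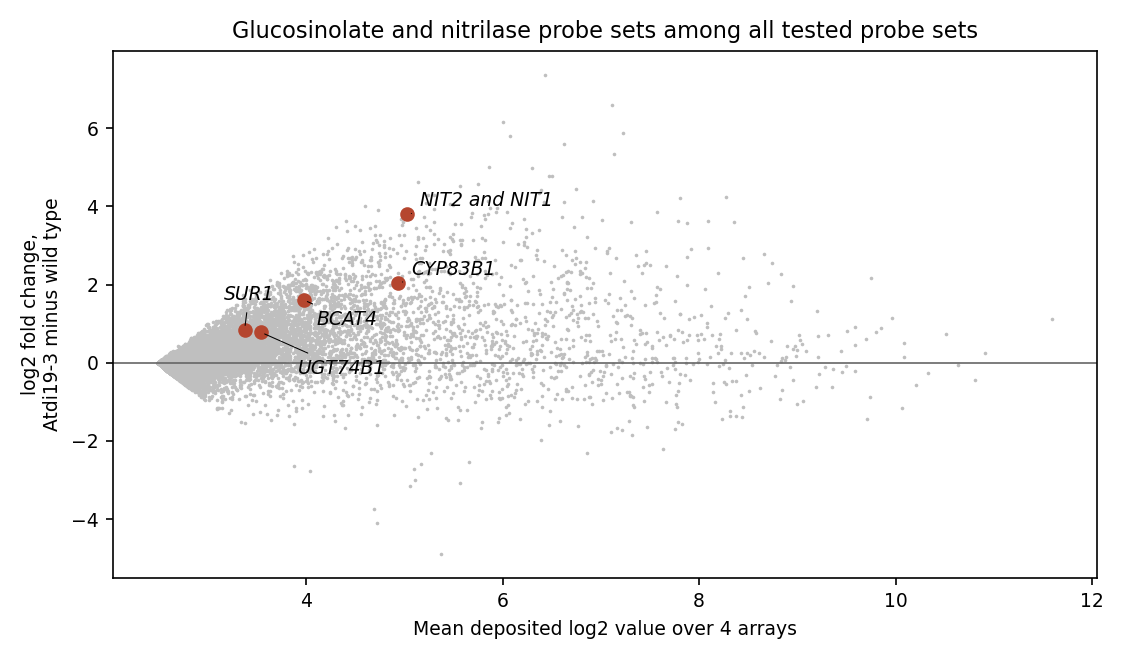
Log2 fold change, Atdi19-3 minus wild type (vertical axis), against the mean deposited log2 value over the 4 arrays (horizontal axis). Each grey point is 1 of the 22746 tested probe sets and red points are the BCAT4, CYP83B1, SUR1, UGT74B1 and shared nitrilase probe sets, which lie above 0, from 0.78 to 3.80.

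For the wider pathway, 81 genes of glucosinolate synthesis, control, transport and breakdown and of the nitrile branch were listed, of which 20 had a named probe set (18 probe sets, the 5 above included). The other 61 were not analysed here, among them the CYP79 cytochromes and the sulfotransferases. Of 9 probe sets named by the platform annotation, 1 was called higher and 0 lower by limma (adjusted p under 0.05), where 3.16% of all tested probe sets were called higher, and their median log2 fold change was 0.24. Of 7 named as a single gene only through the study's list, 1 was called higher, and of 2 shared probe sets named through it both were called higher. Since that list was drawn up on the same arrays, the direction, size and calls of the last 9 are no independent evidence.

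Among the core enzymes, the called gene was GSTU20 (AT1G78370), a glutathione transferase, and it is named by the platform annotation. It read 6.35 and 6.12 in Atdi19-3 and 4.30 and 4.27 in the wild type, a 3.86-fold difference (1.95, standard error 0.10, adjusted p = 0.039). Its fold change was close to that of CYP83B1 in size, but its wild-type arrays lay 0.03 apart and not 1.14. After quantile normalization it was 1.06 and not called (adjusted p = 0.13). The gene AT2G31790, listed with the core and without a symbol in the annotation used, read 2.94 and 3.09 in Atdi19-3 and 2.53 on both wild-type arrays, a difference of 0.49 (adjusted p = 0.12). The wild-type value may be that probe set's floor. All 5 core probe sets had their mutant arrays above the wild-type arrays, as did 28.5% of the tested probe sets and 64.4% of those with a mean above 3, and CYP83B1 and SUR1 are named only through the study's list.

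In methionine chain elongation, IIL1 (AT4G13430), the large subunit of isopropylmalate isomerase, and BCAT3 (AT3G49680), the aminotransferase that can close the cycle, stood beside BCAT4. Both IIL1 and BCAT3 are named only through the study's list of changed genes, so their differences are no independent evidence. IIL1 read 6.94 and 6.60 in Atdi19-3 and 4.90 and 5.92 in the wild type, a difference of 1.36 (adjusted p = 0.37), which was 0.47 after quantile normalization (adjusted p = 0.62). BCAT3 read 4.47 and 4.57 against 2.90 and 3.46, a difference of 1.34 (adjusted p = 0.17). For all 3 probe sets of this cycle the second wild-type array was the higher of its pair. This order is not particular to the cycle. CYP83B1 and RCA showed it too, UGT74B1 and the nitrilases showed the opposite one. More probe sets exceeded 4 on the second wild-type array than on the first (8.34% against 7.1%). Of the 3 probe sets of the cycle, 0 were called, where 3.16% of all tested probe sets were called higher.

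Of the genes of side chains, transport and control, 0 were called by limma on the deposited values. The side-chain gene AOP3 (AT4G03050) had -0.07 (adjusted p = 0.66), between 2.72 and 2.91 on every array. AT2G25450, listed with the side-chain genes, was the probe set of the list with mutant arrays below the wild-type arrays, at 5.60 and 5.67 in Atdi19-3 and 5.83 and 6.36 in the wild type (-0.46, adjusted p = 0.57). It had -1.35 after quantile normalization (adjusted p = 0.11) and -1.07 after median centring, where it was called lower (adjusted p = 0.0092). Median centring lowered all mutant values by 0.61 relative to the wild type, and 17014 of the 22746 tested probe sets were called lower there. The glucosinolate transporters GTR1 (AT3G47960) and GTR2 (AT5G62680) had 0.14 and 0.24 (adjusted p = 0.74 and 0.46), and after quantile normalization they had -0.76 and -0.43 (adjusted p = 0.13 and 0.073). The regulator of indole glucosinolates MYB51 (AT1G18570) read 3.66 and 3.97 in Atdi19-3 and 3.17 and 3.67 in the wild type, with 0.40 as deposited (adjusted p = 0.58) and -0.08 after quantile normalization (adjusted p = 0.90). AT2G04400, listed with tryptophan synthesis, had -0.02 (95% confidence interval -0.48 to 0.45).

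The largest difference of the list was in breakdown, and the next largest was that of the nitrilases. The probe sets of breakdown and of the nitrilases are named only through the study's list of changed genes, so this order is no independent evidence. The other listed breakdown genes had no named probe set. The probe set shared by the myrosinase genes TGG1 (AT5G26000) and TGG2 (AT5G25980) read 8.92 and 9.05 in Atdi19-3 and 3.06 and 3.30 in the wild type. This is a 55.8-fold difference (5.80, standard error 0.12, adjusted p = 0.020), surpassed by 0.0176% of the tested probe sets. As with the nitrilases, the signals of the 2 genes cannot be separated. ESM1 (AT3G14210), a protein that shifts the breakdown products towards isothiocyanates, read 8.96 and 9.24 in Atdi19-3 and 5.34 and 5.68 in the wild type (3.59, standard error 0.20, adjusted p = 0.039). ESP (AT1G54040), the epithiospecifier protein that steers breakdown towards nitriles, had 0.60 and was not called (adjusted p = 0.18), and it had 0.02 after quantile normalization. The TGG1 and TGG2 probe set and ESM1 were also called after quantile normalization, at 5.38 (adjusted p = 0.033) and 2.94 (adjusted p = 0.040). Without either Atdi19-3 array limma called 0 of all tested probe sets, against 3768 and 3933 at an unadjusted p under 0.05, so a call lost in those fits does not single out a gene.

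**Figure D3:**
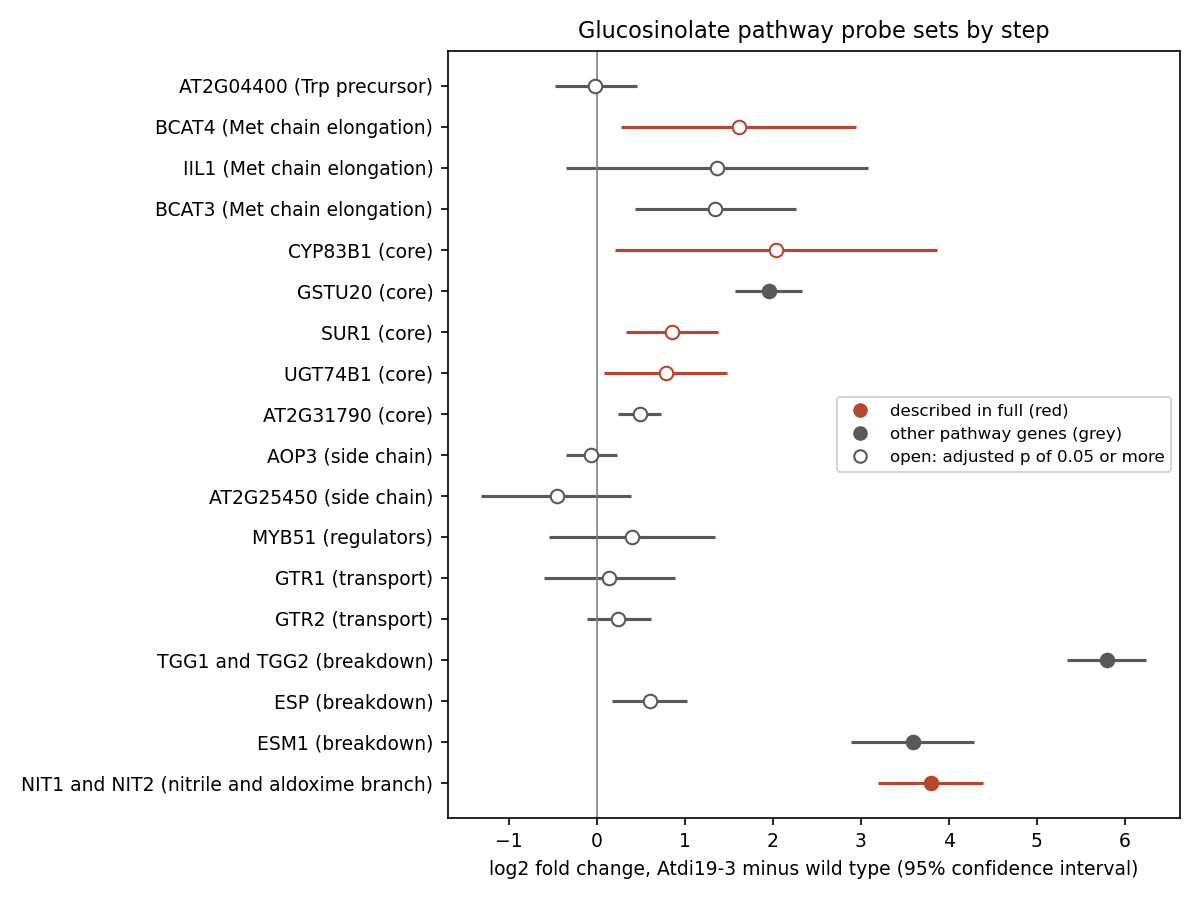
Log2 fold change, Atdi19-3 minus wild type (horizontal axis), with its 95% confidence interval for the 18 named probe sets of the pathway list, from precursor synthesis (top) to the nitrile branch (bottom). Red marks the 5 probe sets described gene by gene, grey the other 13, and filled points an adjusted p under 0.05. The filled points are GSTU20, TGG1 and TGG2, ESM1 and the nitrilases.

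For each of the 5 probe sets, the 3 most alike were sought among the probe sets that the platform annotation gives to 1 gene, by the root mean square difference over the 4 arrays after each was centred on its own mean. Nearest to the nitrilases was AT1G74450 (0.06), at 7.09 and 7.04 in Atdi19-3 and 3.52 and 3.16 in the wild type, followed by AT5G19940 (0.14) and AT3G52800 (0.15). For CYP83B1 these were AT1G32470 (0.08), AT4G14420 (0.09) and AT2G14910 (0.11). AT1G32470 shared the wide spread of the wild-type arrays, at 4.99 and 6.30, against 7.61 and 7.75 in Atdi19-3. BCAT4 was nearest to AT1G29660 (0.03), AT1G21770 (0.06) and COB (0.08), the gene of the cell expansion protein COBRA. SUR1 was nearest to AT3G62010 (0.02), AT5G20660 (0.03) and AT1G53290 (0.03). UGT74B1 was nearest to AT4G32930 (0.03), AT1G14480 (0.03) and the ubiquitin-conjugating enzyme gene UBC29 (0.04). With 4 arrays this describes likeness only. None of these genes is in the pathway list, but only 9 of the 13513 probe sets searched belong to that list, so their absence carries no weight.

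**Figure D4:**
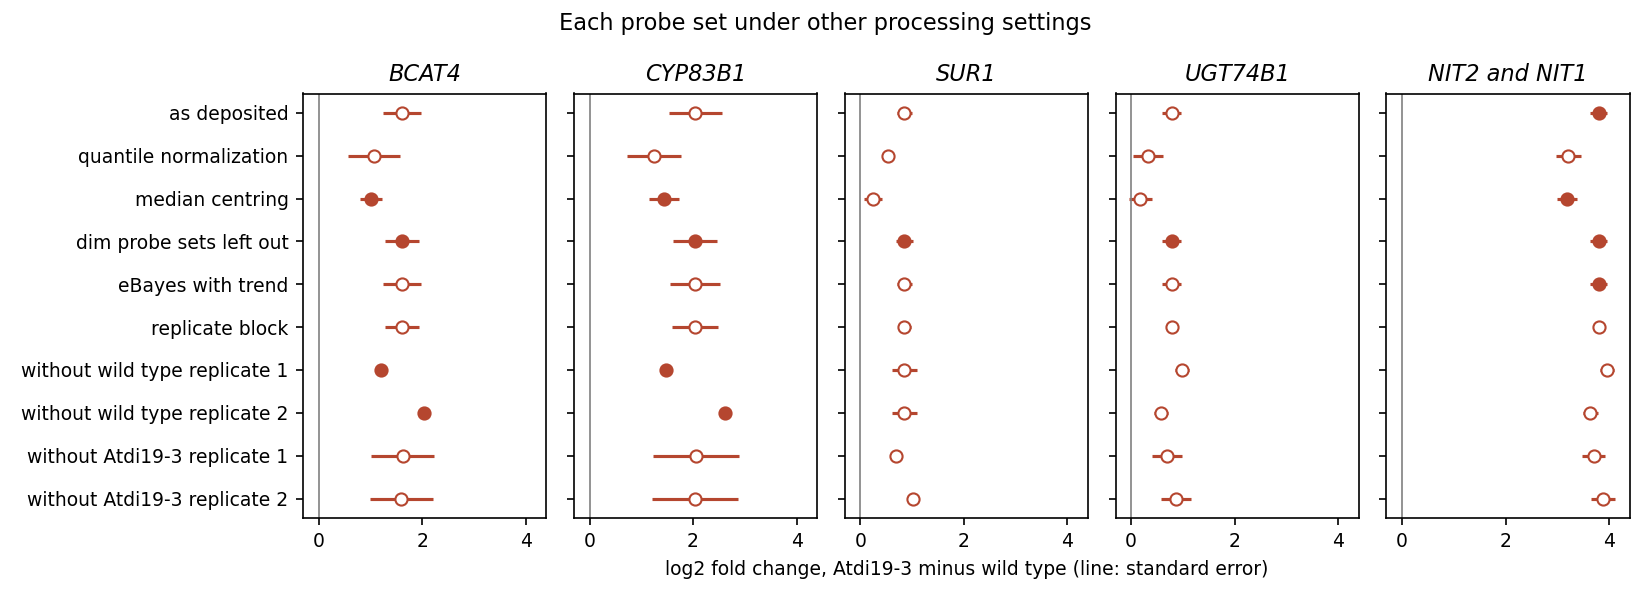
Log2 fold change, Atdi19-3 minus wild type (horizontal axis), with its standard error for the BCAT4, CYP83B1, SUR1, UGT74B1 and shared nitrilase probe sets under each processing setting (rows). Filled points have an adjusted p under 0.05. All values lie above 0, from 0.18 for UGT74B1 after median centring to 3.96 for the nitrilases without the first wild-type array. Only quantile normalization and median centring could turn a sign.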

How the data were processed

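Total RNA (500 ng per sample) of 4 seedling samples was labelled with biotin from the 3' end and hybridized to ATH1 arrays. For 22810 probe sets the authors deposited log2 signals, and the submitters' processing notes name GCRMA and R 3.4.0. The sources used here do not state the normalization between arrays, and scans were not analysed here. The number of arrays limits the precision.

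The 64 control probe sets were set aside, and the other 22746 were fitted with limma 3.58.1 (lmFit and eBayes, R 4.3.3), comparing Atdi19-3 with the wild type without covariates or a filter. P-values were two-sided and adjusted by Benjamini and Hochberg over all probe sets. The prior was worth 0.481 degrees of freedom. With 2 arrays per genotype the smallest exact permutation p is 0.33, so none was run. The fit was tested on simulated data.

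Names came from the platform annotation (13513 probe sets with 1 gene, 503 with several), then from the first part of the study's list of changed genes, of which only names were used. Fold changes and p-values in that list were not used. Loci and symbols follow the TAIR10.1 gene table of RefSeq, and no coordinates are printed because the array values carry no build. Nucleotide and protein sequences were not analysed here.

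Folds were given as lower bounds if the lower genotype had a value under 3 or 2 equal values. Named genes were every examined probe set, every called gene of each pathway step (or its 2 genes of lowest p if nothing was called) and the 3 nearest in likeness. AT2G31790 and ESP were added after their values were seen. The examined probe sets and the gene lists were chosen with earlier results of these data known. Alternatives were quantile normalization, centring each array on its median over the 1334 probe sets above 4 on all arrays, a filter on dim probe sets, a trended prior, the replicate number as a block, leaving out each array and the fold thresholds.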

Additional observations from a re-analysis of the deposited data

How the results depend on the processing

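Of the 5 probe sets, 0 were called by limma after quantile normalization (2 at an unadjusted p under 0.05), 3 after median centring, 5 without dim probe sets, 3 by the fold thresholds and 0 to 2 without 1 array. For the 18 pathway probe sets, of which 4 were called as deposited, these counts were 2, 13 (8 higher, 5 lower), 10, 7 and 0 to 3, and for all tested probe sets, of which 855 were called (718 higher, 137 lower), they were 428 (270 higher, 158 lower), 18462, 2563, 1524 and 0 to 3654. The fit without dim probe sets held only 16 of the 18 pathway probe sets and 6894 of all tested probe sets. The shares called there were 62.5% of the 16 and 37.2% of the 6894. Median centring lowered all mutant values relative to the wild type by 0.61, values at the floor included, so 17014 of its calls were lower. With the replicate number as a block, 0 of the 5, 0 of the 18 and 0 of all probe sets were called (3, 9 and 3638 at an unadjusted p under 0.05). The nitrilase probe set had 3.80 (adjusted p = 0.14) in that fit. Deviations of same-numbered arrays correlated at 0.02 across probe sets, and the labels do not say that the numbers pair samples.

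The nitrilase difference was 3.21 after quantile normalization and 3.64 to 3.96 without 1 array. CYP83B1 was called at 1.43 after median centring and at 2.04 without dim probe sets, had 1.47 to 2.61 without 1 array, and was not called at 1.25 after quantile normalization. BCAT4 was called at 1.01 and 1.61 in these fits and had 1.20 to 2.03 without 1 array. SUR1 (0.85) and UGT74B1 (0.78) were called without dim probe sets, a filter that SUR1 passed only through its mutant values, so that its call there gives no support. They had 0.24 and 0.18 after median centring, and had 0.69 to 1.01 and 0.58 to 0.98 without 1 array. All 5 kept their direction after quantile normalization and after median centring. In the other fits the direction could not turn, because the values were unchanged and the groups did not overlap.

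Signs turned for genes with small differences. After quantile normalization MYB51 had -0.08, GTR1 -0.76 and GTR2 -0.43. After median centring AT2G31790 had -0.12, MYB51 -0.21, GTR1 -0.47, GTR2 -0.36 and ESP -0.01, and both GTR genes were then called lower (adjusted p = 0.027 and 0.045), as were AOP3 (-0.67), AT2G25450 (-1.07) and AT2G04400 (-0.62). Without 1 array AT2G04400 had -0.16 to 0.13, AOP3 -0.14 to 0.01 and GTR1 -0.07 to 0.35, with the sign turned without the first wild-type array. The causes were not tested.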
